A study of Mus musculus with 39 samples.

Results

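The adenylyl cyclase family of mouse dorsal root ganglia (DRG) was followed across 39 Affymetrix arrays. Its members were all probe sets annotated to 1 gene only, where that gene was *Adcy1*, *Adcy2*, *Adcy3*, *Adcy5*, *Adcy6*, *Adcy7*, *Adcy8* or *Adcy9*. This gave 20 of 45037 probe sets tested, for 8 of 18193 genes. *Adcy3*, *Adcy5* and *Adcy9* had 4 probe sets each, *Adcy7* had 3, *Adcy1* had 2, and *Adcy2*, *Adcy6* and *Adcy8* had 1 each. Where 1 value stands for a gene, it is that of its probe set with the highest mean over all arrays. All 20 entered every fit without a filter on low values.

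Neurons were sorted from lumbar DRG of newborn (p0) 129/C57Bl6 mice that carried the TrkCGFP BAC transgene, in which regulatory elements of the TrkC gene drive GFP. GFPon cells, which were also gated for size, are called proprioceptors, and GFPoff cells are the other cells of the same dissociated ganglia. A first set of 16 arrays, with 2 for each population, came from ganglia pooled over L1 to L6 (350 cells a sample) of wild-type, Bax-/-, NT3-/-Bax-/- and mlcNT3 mice. Bax-/- mice lack a gene needed for the death of neurons deprived of trophic factor, so that DRG neurons remain when NT3 is also deleted, and Bax-/- alone is the reference for NT3-/-Bax-/-. In mlcNT3 mice a myosin light chain promoter drives NT3 in skeletal muscle, and these mice have more proprioceptors. A second set of 11 arrays came from wild-type p0 mice sorted separately at L1 and L5 (100 cells a sample), with 2 arrays for L1 GFPon and 3 for each other group. The last 12 arrays were of whole, unsorted L1 or L5 DRG of adult wild-type mice, 3 for each level with and without 5 weeks of access to a voluntary running wheel. By the study's methods these were male C57Bl6 mice, 5 weeks old when wheel access began, and littermate controls without a wheel. Titles of the adult samples also bear a TrkC sign that follows the level, although these were unsorted ganglia.

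Adenylyl cyclases make cyclic AMP (cAMP) from ATP in response to G protein-coupled receptors. Stimulatory G proteins activate the membrane-bound members and inhibitory G proteins restrain several of them, while phosphodiesterases break cAMP down and protein kinase A carries the signal on to channels and to the transcription factor CREB. Members differ in what else they sense. *Adcy1* and *Adcy8* encode enzymes stimulated by calcium and calmodulin and *Adcy3* one that responds to them under some conditions. These 3 are grouped here as calmodulin-responsive. *Adcy2* and *Adcy7* encode enzymes enhanced by G protein beta-gamma subunits. *Adcy5* and *Adcy6* encode enzymes inhibited by calcium, and *Adcy9* encodes one that responds weakly to forskolin. In sensory neurons cAMP is best known for its part in sensitization of nociceptors and in axon growth.

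Proprioceptor markers in sum were higher in GFPon than in GFPoff arrays of all 4 genotypes, with the smallest gap in NT3-/-Bax-/- mice. Summed linear values of 4 measured proprioceptor markers, *Pvalb*, *Runx3*, *Ntrk3* and *Whrn*, were 10540 to 11650 in wild-type GFPon and 307.1 to 323.3 in wild-type GFPoff arrays, although *Whrn* alone did not differ. In NT3-/-Bax-/- arrays this sum was 2710 to 4221 in GFPon and 787.1 to 802.6 in GFPoff. *Pvalb* was low in these GFPon arrays (mean log2 value 8.50, against 13.12 in Bax-/-), while *Ntrk3* was at 11.01 against 10.86. Glial markers summed to 2486 to 5352 in NT3-/-Bax-/- GFPon, against 8029 to 10880 in Bax-/- GFPon. Nociceptor markers summed to 2278 to 4204 against 7822 to 8070, while fibroblast sums were alike (705.4 to 890.1 against 696.7 to 814.3). The NT3-/-Bax-/- GFPoff arrays differed from Bax-/- GFPoff in more of the lists. Their 5 fibroblast markers summed to 17500 and 28550, against 1588 to 2552 in Bax-/- GFPoff, their 4 endothelial markers to 1721 and 1810 against 228 to 343.5, their 6 measured glial markers to 23060 and 27000 against 12020 and 12510, and their 5 measured nociceptor markers to 4513 and 17000 against 24670 and 24700. Immune markers were high in 1 of these arrays (9209, against 373.5 in the other). Contrasts of these 2 arrays with others are therefore given after all other newborn contrasts that use GFPon arrays. These 2 arrays also enter the spread shared by the fit of all 16 pooled arrays.

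In wild-type newborns, the 3 calmodulin-responsive members were all higher in proprioceptors than in the other DRG cells. The family was chosen by the log2 intensities of these pooled arrays, which were known for all genotypes, and the study had listed *Adcy8* from them, so their values are a description and carry no p. *Adcy1*, on the log2 scale, was at 11.55 and 11.56 in the 2 wild-type GFPon arrays and at 9.20 and 9.39 in the 2 GFPoff arrays, a log2 difference of 2.26 (SE 0.17, 4.8-fold). Its second probe set differed by 2.53 (SE 0.29). *Adcy3* was at 9.85 and 9.76 in GFPon and at 8.08 and 8.06 in GFPoff, a log2 difference of 1.73 (SE 0.23). All 4 *Adcy3* probe sets differed in this direction, by 1.06 to 1.73. *Adcy8* was at 8.64 and 8.90 in GFPon and at 6.08 and 6.18 in GFPoff, a log2 difference of 2.64 (SE 0.38, 6.24-fold), the widest of the 8 genes. Its GFPoff values lay at the medians of those arrays (6.13), so the fold may not be exact. For none of these 3 genes did the GFPon and GFPoff arrays overlap, which also held for 62% of all probe sets. In sorted pools a smaller share of a cell type and less RNA in each of its cells cannot be told apart.

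**Figure D1:**
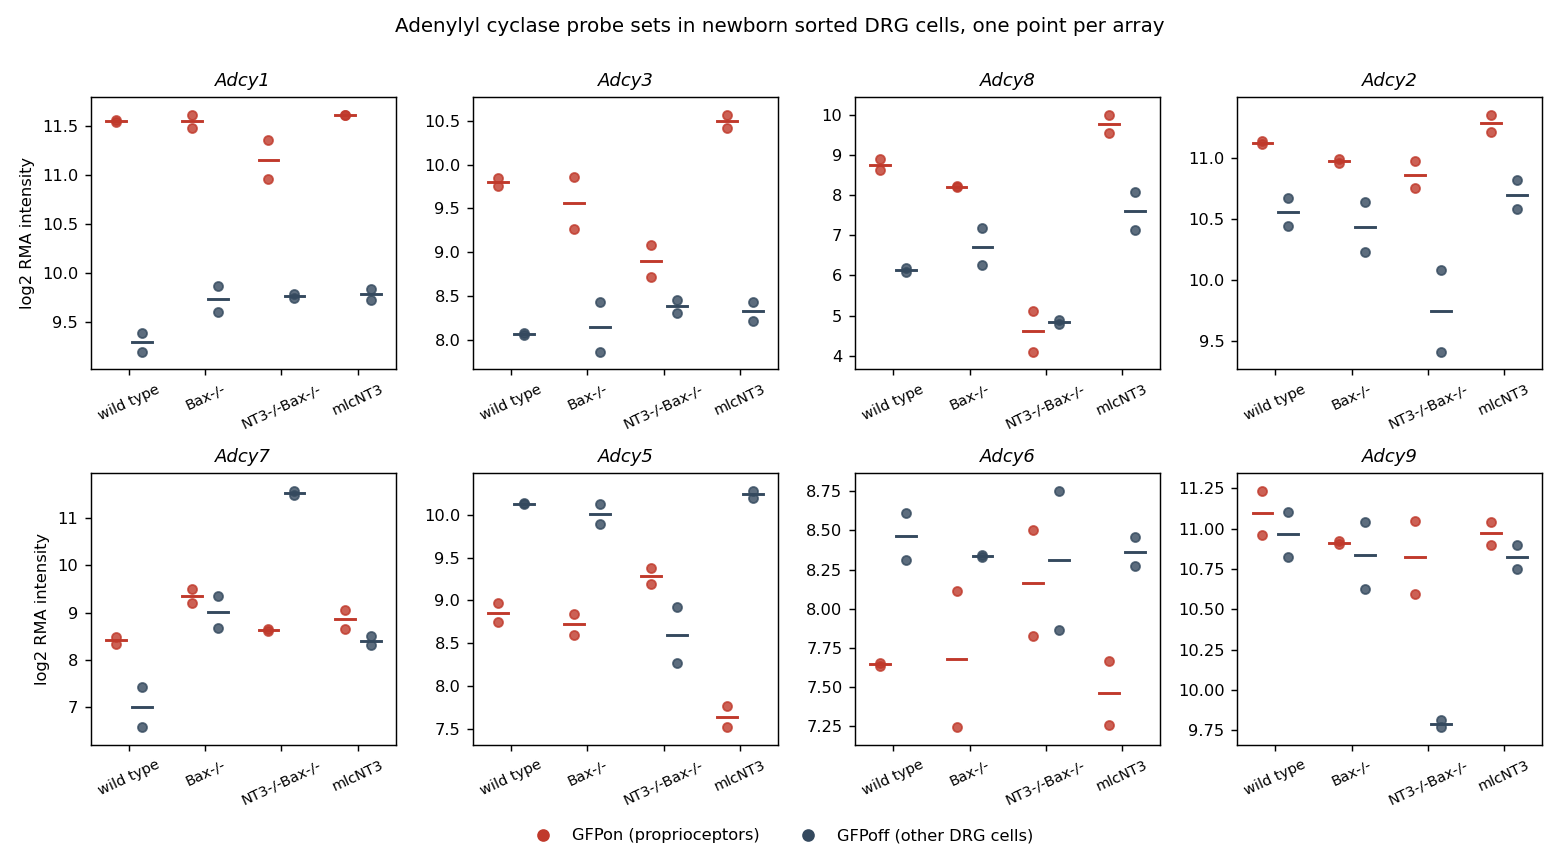
Log2 RMA intensity (y axis) of the representative probe set of each member in the 16 pooled newborn arrays, by genotype (x axis), with 1 point for each array and a line at the group mean; each panel has its own axis. *Adcy1* and *Adcy3* are higher in GFPon than in GFPoff in every genotype, while *Adcy8* is below 5.2 in all 4 NT3-/-Bax-/- arrays and *Adcy7* is above 11.4 in the 2 NT3-/-Bax-/- GFPoff arrays.

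The other members went in both directions. *Adcy7* was at 8.34 and 8.49 in wild-type GFPon and at 6.58 and 7.43 in GFPoff, a log2 difference of 1.41 (SE 0.28), which was not past the threshold defined below when GFPon replicate 2 (difference 1.34) or GFPoff replicate 1 (0.98) was left out. Its other 2 probe sets differed by 0.70 and -0.17. *Adcy5* went the opposite way, at 8.96 and 8.75 in GFPon and 10.13 in both GFPoff arrays, a log2 difference of -1.27 (SE 0.21). Its 3 other probe sets differed by -0.20 to -0.03. The mean over all 4 was not past the threshold (-0.40), nor was that over the 3 of *Adcy7* (0.65). Of those 3 *Adcy5* sets, the brightest had means of 8.62 in GFPon and 8.83 in GFPoff and differed by -0.20. The others had means of 3.7 to 4.7 in all groups, under the array medians of 6.02 to 6.18. Sets this dim may not show a difference, yet they enter every mean over the 4. *Adcy6* was also lower, at 7.65 and 7.63 against 8.61 and 8.31, but its difference of -0.82 (SE 0.33) was not past the threshold. *Adcy2* (0.57, SE 0.22) and *Adcy9* (0.13, SE 0.20) were not past it either.

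A probe set was called where its Benjamini-Hochberg adjusted p over all 45037 was under 0.05 in limma. In wild-type GFPon against GFPoff, 8 of 20 member probe sets were called higher, beside 5.12% of all probe sets, and 1 was called lower, beside 3.83%. These counts, and the counts and calls of every other comparison of pooled arrays below, describe arrays on which the choice rested. They are not a test of the family. The labels do not say which arrays came from separate animals, so that the spread behind every p here may be technical. The median log2 difference was 0.68 over the 20 and -0.07 over all probe sets.

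The rest of the cAMP pathway was read from a list of 49 genes, of which 46 had a probe set of their own. In the wild-type comparison, 2 were called higher and 8 lower in proprioceptors, beside the 5.12% and 3.83% of all probe sets given above. These 10 became 6 and 4 without wild-type GFPon replicates 1 and 2, and 5 without either GFPoff array. *Akap5*, an anchoring protein that holds protein kinase A near synaptic membranes, was higher by 1.19 (SE 0.20), and *Pde4b*, a cAMP phosphodiesterase, by 0.81 (SE 0.21). The lower ones were led by *Pde10a* (-2.24, SE 0.30) and *Pde1c* (-1.83, SE 0.34), both phosphodiesterases, *Pkig*, an inhibitor of protein kinase A (-1.78, SE 0.25), and *Gnao1*, an inhibitory G protein alpha subunit (-1.03, SE 0.18). Neither of the 2 stimulatory alpha subunits and neither catalytic subunit of protein kinase A was called. The remaining cyclases, *Adcy4* and the soluble enzyme's gene *Adcy10*, differed by -0.01 (SE 0.19) and -0.07 (SE 0.15).

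Promoter sequences are shown for *Adcy1* and *Adcy3*, which were both higher in proprioceptors, and for *Adcy5*, which was lower, so that their composition can be compared. Each is the 250 bases before the first annotated start of the gene, 5′ to 3′ on the strand of the gene, from RefSeq on build GRCm38.p6. *Adcy1* lies on the plus strand (chr11:7063183-7063432), as do *Adcy3* (chr12:4133147-4133396) and *Adcy5* (chr16:35154614-35154863). Capitals mark the GC box GGGCGG on either strand:
Adcy1: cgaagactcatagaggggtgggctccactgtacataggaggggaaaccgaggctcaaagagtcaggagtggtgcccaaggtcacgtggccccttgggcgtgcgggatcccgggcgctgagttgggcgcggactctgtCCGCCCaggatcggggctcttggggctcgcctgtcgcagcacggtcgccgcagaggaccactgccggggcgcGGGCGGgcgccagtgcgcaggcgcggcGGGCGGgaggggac
Adcy3: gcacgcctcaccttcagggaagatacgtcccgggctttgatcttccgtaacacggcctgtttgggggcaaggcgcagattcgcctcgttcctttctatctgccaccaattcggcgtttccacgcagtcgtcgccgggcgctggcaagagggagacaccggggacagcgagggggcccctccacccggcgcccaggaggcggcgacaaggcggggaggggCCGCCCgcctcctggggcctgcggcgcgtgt
Adcy5: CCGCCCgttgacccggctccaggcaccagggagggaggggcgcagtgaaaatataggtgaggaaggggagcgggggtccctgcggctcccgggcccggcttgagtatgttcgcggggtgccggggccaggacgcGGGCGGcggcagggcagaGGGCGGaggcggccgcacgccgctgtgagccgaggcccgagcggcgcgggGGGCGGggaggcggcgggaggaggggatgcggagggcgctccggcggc

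Of the 8 genes, 6 were in the promoter table, with 9 starts in all. GC content of the printed sequences was 71.2% for *Adcy1*, 68.8% for *Adcy3* and 78% for *Adcy5*, and they held 3, 1 and 4 GC boxes. A GC box stood in 32.7% of all 32851 promoters of this length. The other motifs searched on both strands were TGACG, the core of the cAMP response element, present in 17.8% of all promoters, TGTGGT, bound by RUNX factors, in 14%, and CCGGAA, the core bound by ETS factors, in 12%. None of these 3 was in the printed sequences. Among the others, TGACG was found once in *Adcy9* and once at the first of 3 starts of *Adcy7*, and TGTGGT once at the second start of *Adcy3* and once at the second of *Adcy7*. The motifs do not overlap each other in these sequences. A match says only that the letters are there.

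The L1 and L5 arrays, which the study's listing of *Adcy8* did not use, measured the same contrast in other cells. The members were still chosen with earlier results of these data known. The p-values from these arrays and from the adult arrays are therefore not those of an independent test. At L5, *Adcy1* was at 11.52, 11.79 and 11.81 in GFPon and at 10.31, 9.95 and 10.17 in GFPoff, a log2 difference of 1.56 (SE 0.14, adjusted p = 1.51e-05). *Adcy3* was at 9.16, 9.27 and 9.48 against 8.11, 7.86 and 8.39 (difference 1.18, SE 0.15, adjusted p = 0.000215). *Adcy8* was at 8.47, 8.43 and 8.55 against 6.89, 6.70 and 6.93 (difference 1.64, SE 0.24, adjusted p = 0.000563). In each case the lowest GFPon array lay above the highest GFPoff array, and 35% of all probe sets did not overlap in this comparison.

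Both members inhibited by calcium were lower in L5 proprioceptors. *Adcy5* was at 8.32, 8.61 and 8.82 in GFPon and at 10.01, 10.01 and 10.02 in GFPoff, a log2 difference of -1.43 (SE 0.15, adjusted p = 4.61e-05). Its 3 other probe sets again differed by little (-0.11 to 0.21, none called). Only that at -0.11 (means of 8.42 in GFPon and 8.54 in GFPoff) lay above the array medians. The mean over its 4 probe sets, which includes the dim sets, was not called (-0.30, adjusted p = 0.0916). *Adcy6* was at 7.17, 7.54 and 7.05 against 7.84, 7.73 and 8.18, and its difference of -0.67 (SE 0.16, adjusted p = 0.013) was not called without GFPoff replicate 3 (-0.53, adjusted p = 0.0533) or with the replicate number as a block (adjusted p = 0.0551). *Adcy7* had arrays at 8.39, 8.09 and 8.60 against 6.56, 6.98 and 8.02, and did not pass (difference 1.17, SE 0.41, adjusted p = 0.0694), but passed without GFPoff replicate 3 (1.59, adjusted p = 0.0174), without L1 GFPoff replicate 2 in the shared fit (adjusted p = 0.0305) and with the block (adjusted p = 0.026). For *Adcy2* and *Adcy9* the differences were 0.12 (95% interval -0.09 to 0.34) and -0.01 (-0.26 to 0.25), although another *Adcy9* probe set was called higher (0.48, SE 0.14, adjusted p = 0.0362).

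**Figure D2:**
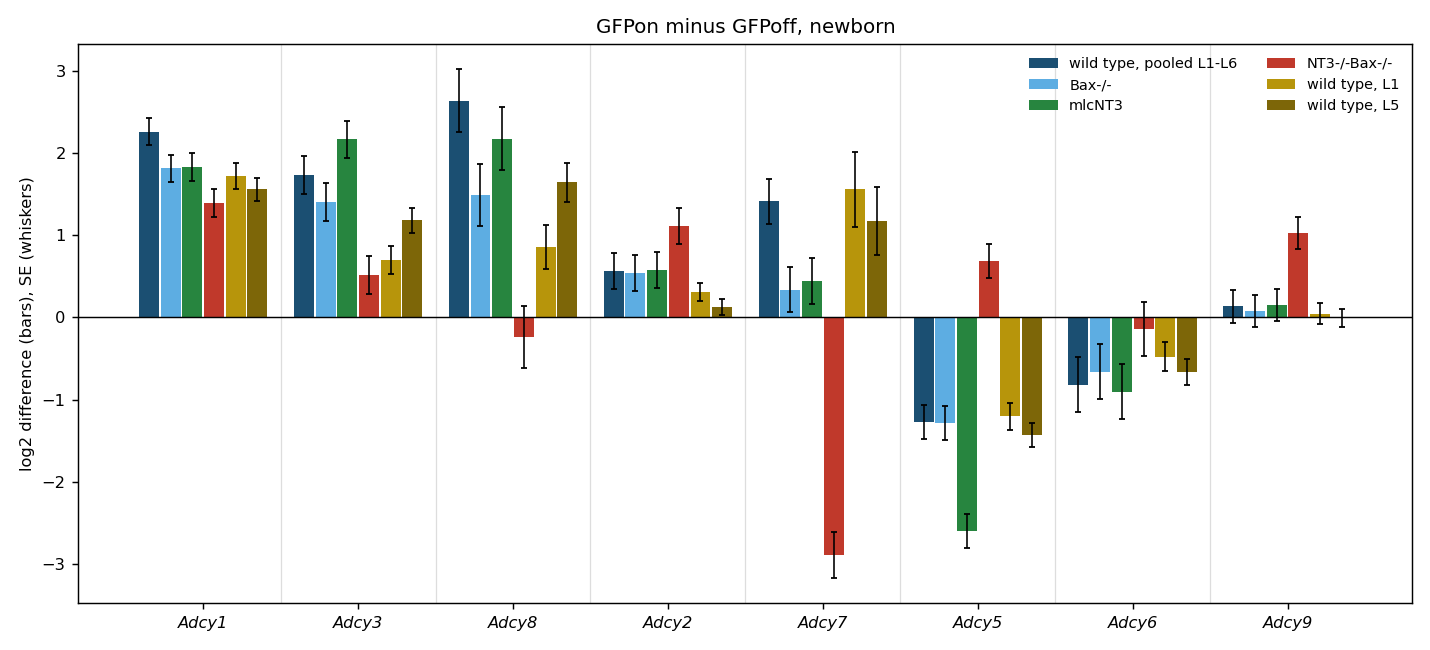
Log2 difference between GFPon and GFPoff (y axis; bars, with SE as whiskers) of the representative probe set of each member (x axis), for the 4 pooled genotypes (n = 2 against 2 arrays) and for wild-type L1 (2 against 3) and L5 (3 against 3). *Adcy1* and *Adcy3* bars are above 0 in all 6 settings, and the NT3-/-Bax-/- bar of *Adcy5* (0.69) and of *Adcy7* (-2.89) points away from the others.

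At L1, the same 3 calmodulin-responsive members were higher in proprioceptors and *Adcy7* was as well. *Adcy1* was at 11.57 and 11.64 in GFPon and at 9.71, 9.91 and 10.03 in GFPoff (difference 1.72, SE 0.16, adjusted p = 1.93e-05). *Adcy3* was at 9.09 and 8.88 against 8.22, 8.27 and 8.36 (0.70, SE 0.17, adjusted p = 0.0141), and *Adcy5* was at 8.88 and 9.28 against 10.32, 10.21 and 10.32 (-1.20, SE 0.17, adjusted p = 0.000425). None of these groups overlapped, as was true of 45.4% of all probe sets, but the *Adcy3* call was lost without GFPon replicate 1 (0.59, adjusted p = 0.117). *Adcy7* was at 9.11 and 8.60 against 7.85, 6.40 and 7.63 (1.56, SE 0.46, adjusted p = 0.0364). *Adcy8* was at 7.12 and 7.40 against 6.22, 5.90 and 7.08 (0.86, SE 0.27, adjusted p = 0.0497). Both of these calls were close to the threshold. That of *Adcy7* was lost without either GFPon array or GFPoff replicate 2 (difference 1.11 to 1.82), and that of *Adcy8* without any 1 array of the fit other than L1 GFPoff replicate 3 (difference 0.61 to 1.00). As means over all probe sets of the gene, neither *Adcy7* (0.73, adjusted p = 0.0757) nor *Adcy5* (-0.27, adjusted p = 0.19) was called at L1. *Adcy6* was at 7.53 and 7.57 against 8.06, 7.87 and 8.14 and did not pass (-0.48, SE 0.18, adjusted p = 0.0985).

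Over all member probe sets, 8 of 20 were called higher at L5, beside 9.91% of all probe sets, and 2 lower, beside 10%. At L1, 5 were called higher, beside 9.03%, and 1 lower, beside 8.92%. By gene the calls were the same at both levels for *Adcy1*, *Adcy3* and *Adcy8* (higher) and *Adcy5* (lower). At L5, GFPoff arrays had higher sums than GFPon arrays for all 5 lists of other cell types. Their fibroblast markers summed to 4659 to 6578 against 851.3 to 1390 in GFPon, their endothelial markers to 833.5 to 1067 against 153.9 to 180.8, and their nociceptor markers to 30530 to 31260 against 7231 to 9853. At L1 the immune sums overlapped (143.7 to 1203 in GFPoff, 132 to 152.4 in GFPon). The part of these cells in the member differences was not tested.

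**Figure D3:**
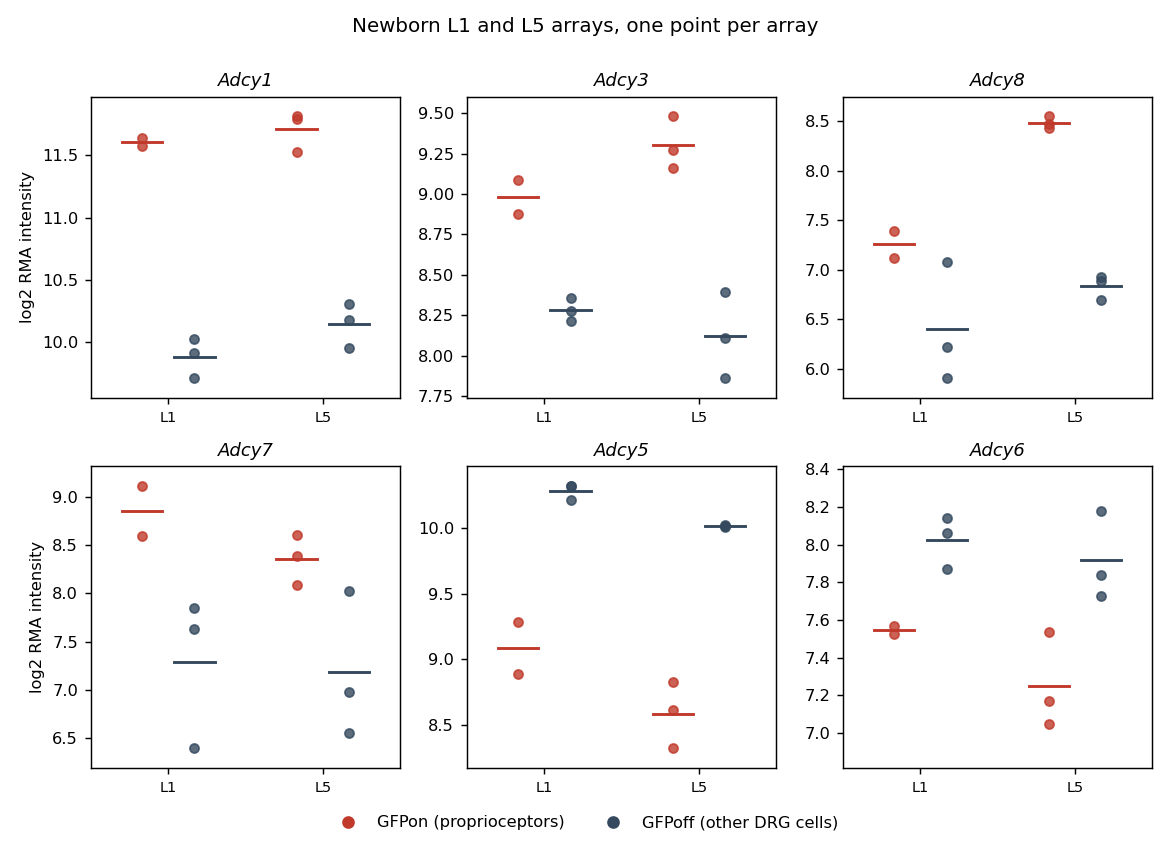
Log2 RMA intensity (y axis) of 6 members in newborn GFPon and GFPoff arrays sorted separately at L1 and L5 (x axis), with 1 point for each array (n = 2 for L1 GFPon, otherwise 3) and a line at the mean; each panel has its own axis. *Adcy8* in GFPon was higher at L5 (8.43 to 8.55) than at L1 (7.12 and 7.40).

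Other genes of the cAMP pathway moved in both directions at both levels. Of 46, 7 were called higher and 12 lower at L5, beside 9.91% and 10% of all probe sets. At L1, 7 were called higher and 10 lower, beside 9.03% and 8.92%. At L5, *Akap5* (1.34, SE 0.14, adjusted p = 5.14e-05), *Pde4d* (1.30, SE 0.11, adjusted p = 8.63e-06) and *Pde1a*, a calcium-dependent phosphodiesterase (1.12, SE 0.27, adjusted p = 0.0126), were higher in proprioceptors, as was *Gnai1*, an inhibitory alpha subunit (0.81, SE 0.11, adjusted p = 0.000247). *Pde1c* (-3.95, SE 0.75, adjusted p = 0.003), *Pde10a* (-2.04, SE 0.11, adjusted p = 7.39e-07), *Pkig* (-1.97, SE 0.13, adjusted p = 1.65e-06) and *Gnao1* (-1.31, SE 0.14, adjusted p = 6.74e-05) were lower. *Adcy4* (-0.25, SE 0.18) and *Adcy10* (0.18, SE 0.16) were not called.

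No member passed the test between L5 and L1. In limma, 0 of 20 probe sets were called in GFPon, beside 0.397% of all probe sets, and 4 had an unadjusted p under 0.05. In GFPoff 0 were called, beside 0.16%, and 1 had an unadjusted p under 0.05. *Adcy8* had the widest difference in GFPon, 1.23 (95% interval 0.63 to 1.82, unadjusted p = 0.000843, adjusted p = 0.105), and no L5 array overlapped with an L1 array (22% of all probe sets did not overlap). It passed the test without L1 GFPoff replicate 3 in the shared fit (adjusted p = 0.0186) and in 1 fit of all 39 arrays (adjusted p = 0.0271). In GFPoff the difference was 0.44 (SE 0.24), and the difference between the 2 populations in this contrast, 0.79 (95% interval -0.01 to 1.59, adjusted p = 0.742), did not pass. For that contrast 0 member probe sets were called in limma, beside 0.0666% of all, and 1 had an unadjusted p under 0.05. For *Adcy1* in GFPon the interval was -0.24 to 0.45, and for *Adcy5* it was -0.86 to -0.13 (adjusted p = 0.331).

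In proprioceptors without NT3, *Adcy8* was the member with the widest difference. It was at 5.11 and 4.10 in NT3-/-Bax-/- GFPon, at 8.20 and 8.23 in Bax-/- GFPon and at 8.64 and 8.90 in wild-type GFPon. Both NT3-/-Bax-/- values lay under the medians of all arrays, which were 6.02 to 6.18. No detection call was used here, so the size of the difference is given as a bound, with *Adcy8* set no lower than the median of each NT3-/-Bax-/- array, a floor chosen after seeing the data. On the group means it was at least 4.32-fold lower than in Bax-/- and at least 6.34-fold lower than in wild-type, with no allowance for the spread between arrays. The RMA values themselves gave log2 differences of -3.61 and -4.17 (SE 0.38 each), while Bax-/- and wild-type differed by -0.55 (SE 0.38), which was not called. Of the 20 probe sets, that of *Adcy8* was the only one called against Bax-/-, lower, beside 9.17% of all probe sets called lower, and none was called higher, beside 9.05%. The number called rose to 5 without Bax-/- GFPon replicate 2 or NT3-/-Bax-/- GFPon replicate 2, to 3 without either NT3-/-Bax-/- GFPoff array and to 2 without either Bax-/- GFPoff array. *Pvalb* and the glial and nociceptor sums were low in the same arrays, as given above, and their relation to *Adcy8* was not tested.

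The other calmodulin-responsive members differed by less. *Adcy1* was at 10.97 and 11.36 in NT3-/-Bax-/- GFPon and at 11.48 and 11.62 in Bax-/-, a difference of -0.39 (SE 0.17) that was called only without NT3-/-Bax-/- GFPon replicate 2 (-0.59). *Adcy3* was at 9.08 and 8.72 against 9.85 and 9.27 in Bax-/-, a difference of -0.66 (SE 0.23), called only without Bax-/- GFPon replicate 2 (-0.95), with dim probe sets left out or in 1 fit of all 39 arrays. Against wild-type *Adcy3* was called lower (-0.90, SE 0.23), though not without NT3-/-Bax-/- GFPon replicate 2 (-0.72) or without either wild-type GFPon array (-0.86 and -0.95). Between NT3-/-Bax-/- and wild-type GFPon, 6 member probe sets were called lower, beside 12.7% of all, and 0 higher, beside 13.3%. Without NT3-/-Bax-/- GFPon replicate 1, wild-type GFPon replicate 1 or wild-type GFPon replicate 2, the number called was 3, 2 and 3.

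*Adcy5* was at 9.19 and 9.38 in NT3-/-Bax-/- GFPon, above 8.60 and 8.85 in Bax-/- and 8.96 and 8.75 in wild-type, with differences of 0.56 (SE 0.21) and 0.42 (SE 0.21) that were not called. The former was called without either or both NT3-/-Bax-/- GFPoff arrays in the shared fit and in 1 fit of all 39 arrays. *Adcy7* differed by -0.72 (SE 0.28) from Bax-/- and 0.21 (SE 0.28) from wild-type, *Adcy6* by 0.49 (SE 0.33) and 0.52 (SE 0.33), and *Adcy2* by -0.11 (SE 0.22) and -0.26 (SE 0.22). For *Adcy9* the probe sets disagreed. The representative differed by -0.28 (SE 0.20) from wild-type, but the other 3 by -1.06 to -1.31, all called lower, as was the mean over all 4 (-0.99).

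**Figure D4:**
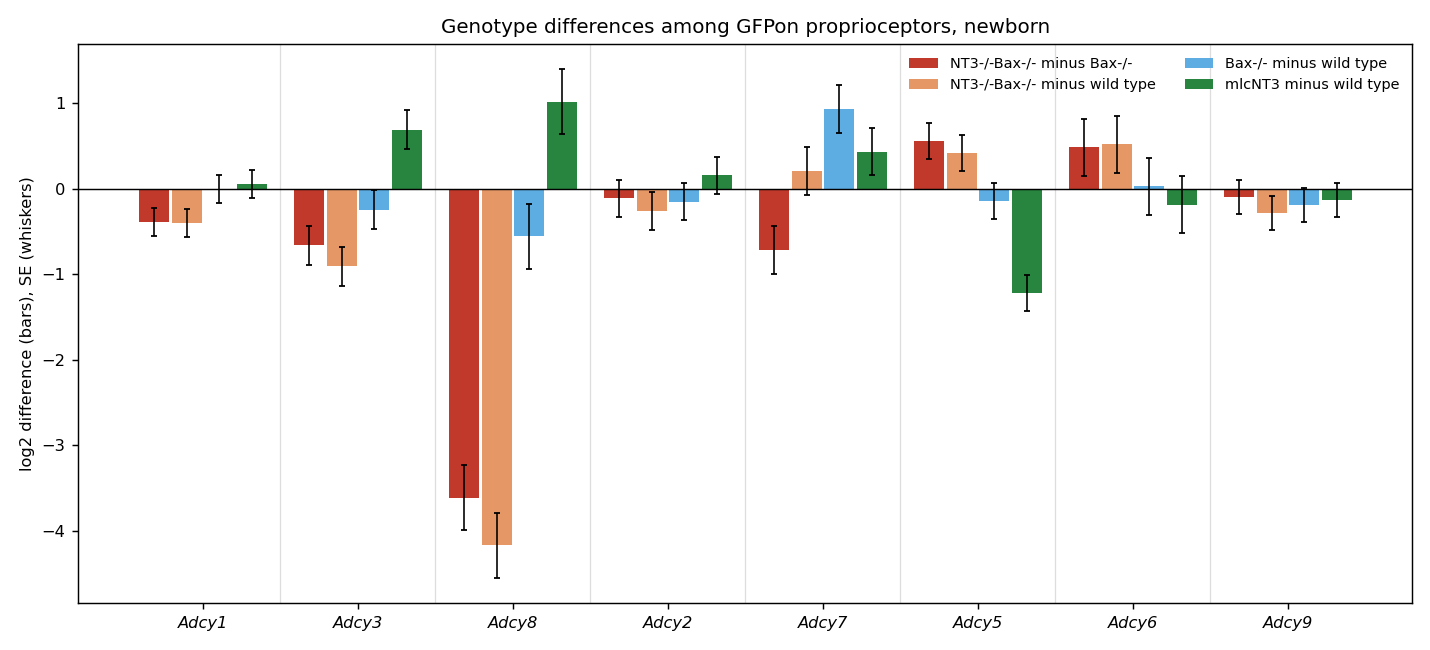
Log2 differences between genotypes among GFPon proprioceptors (y axis; bars, with SE as whiskers, n = 2 against 2 arrays) for the representative probe set of each member (x axis). The *Adcy8* bars are drawn at -3.61 and -4.17 without NT3, where the probe set lay under the array medians. With the floor at those medians the differences of the means are -2.11 and -2.66, with no allowance for spread. With surplus NT3 the *Adcy8* bar is at 1.02, while the *Adcy5* bars point the other way (0.56, 0.42 and -1.22).

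Of the pathway list, 10 of 46 genes were called higher and 7 lower in NT3-/-Bax-/- GFPon against Bax-/- GFPon, beside 9.05% and 9.17% of all probe sets. These 17 became 9 without Bax-/- GFPon replicate 1, and 10 and 11 without NT3-/-Bax-/- GFPon replicates 1 and 2. *Prkar2b*, a regulatory subunit of protein kinase A, was higher by 1.42 (SE 0.21), *Akap9* by 1.25 (SE 0.21), *Pde7a* by 1.00 (SE 0.28) and *Rapgef3*, which encodes the cAMP-activated exchange factor Epac, by 1.00 (SE 0.21). *Gnai1* fell by 1.49 on the log2 scale (SE 0.22), *Pde10a* by 1.39 (SE 0.30), *Akap5* by 1.24 (SE 0.20) and *Pde1c* by 1.13 (SE 0.34).

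Without Bax alone, no member probe set was called in GFPon (0 higher, beside 0.34% of all probe sets, and 0 lower, beside 0.16%) by limma, and 3 had an unadjusted p under 0.05. *Adcy7* had the widest difference, 0.93 (SE 0.28), at 9.20 and 9.50 in Bax-/- against 8.34 and 8.49 in wild-type. Those 4 arrays did not overlap, nor did those of 43.2% of all probe sets.

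With surplus NT3, *Adcy5* was the 1 member probe set called in GFPon, lower, beside 0.0711% of all probe sets, and 0 were called higher, beside 0.138%. It was at 7.52 and 7.76 in mlcNT3 GFPon and at 8.96 and 8.75 in wild-type, a log2 difference of -1.22 (SE 0.21). The call was lost on leaving out any 1 of 10 arrays, both arrays each of wild-type GFPon, wild-type GFPoff, mlcNT3 GFPon, mlcNT3 GFPoff and Bax-/- GFPoff (difference -1.34 to -1.10), and the other 3 *Adcy5* probe sets differed by -0.20 to 0.13 (mean over all 4 -0.32, not called). *Adcy8* was at 10.02 and 9.56 against 8.64 and 8.90 (1.02, SE 0.38), and *Adcy3* at 10.57 and 10.42 against 9.85 and 9.76 (0.69, SE 0.23). In both genes the mlcNT3 arrays lay above the wild-type arrays, but neither was called, and 39.8% of all probe sets did not overlap. Both passed the methods' thresholds in limma, and *Adcy3* also in the methods' t-test. In a fit of the 2 groups alone *Adcy8* was called. *Adcy1* differed by 0.06 (95% interval from the same fit -0.30 to 0.42). Of the pathway list, 2 genes were called, *Pde1c* (1.96, SE 0.34) and *Pde1a* (1.35, SE 0.18), both higher, and 0 were called without either mlcNT3 GFPon or wild-type GFPon array and 1 without either array of wild-type, mlcNT3 or Bax-/- GFPoff.

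The order of the *Adcy8* means over the 8 pooled groups ran from mlcNT3 GFPon (9.79) through wild-type GFPon (8.77), Bax-/- GFPon (8.22), mlcNT3 GFPoff (7.61), Bax-/- GFPoff (6.72) and wild-type GFPoff (6.13) to NT3-/-Bax-/- GFPoff (4.84) and GFPon (4.60). Arrays of neighbours overlapped between mlcNT3 and Bax-/- GFPoff and between the 2 NT3-/-Bax-/- groups. With 2 arrays a group, 39.8% to 62.2% of all probe sets did not overlap in the pooled contrasts. For *Adcy5* the order began with mlcNT3 GFPoff (10.24), wild-type GFPoff (10.13) and Bax-/- GFPoff (10.01) and ended with mlcNT3 GFPon (7.64).

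Proprioceptors of the mutants were also set against GFPoff cells of the same genotype. In Bax-/- mice *Adcy1* (1.81, SE 0.17), *Adcy3* (1.41, SE 0.23) and *Adcy8* (1.49, SE 0.38) were called higher and *Adcy5* lower (-1.28, SE 0.21), with 6 probe sets called higher, beside 4.05% of all, and 1 lower, beside 3.77%. Without GFPon replicate 1, 4 member probe sets were called in place of 7. The *Adcy5* call was lost with the mean over its 4 probe sets (-0.29). The *Adcy8* call was lost without either Bax-/- GFPon array (1.51 and 1.48) or GFPoff replicate 2 (1.02). In mlcNT3 mice the same 4 genes were called, *Adcy1* (1.83, SE 0.17), *Adcy3* (2.17, SE 0.23), *Adcy8* (2.18, SE 0.38) and *Adcy5* (-2.60, SE 0.21), with 7 probe sets called higher, beside 4.18%, and 1 lower, beside 5.84%. All comparisons between genotypes share their wild-type or Bax-/- arrays.

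In NT3-/-Bax-/- mice *Adcy1* was again called higher in GFPon (1.39, SE 0.17), *Adcy3* was not called (0.52, SE 0.23), and *Adcy8* was low in both populations (5.11 and 4.10 against 4.78 and 4.89). *Adcy7* was at 8.65 and 8.61 in GFPon and at 11.47 and 11.57 in GFPoff, a difference of -2.89 (SE 0.28), and its other 2 probe sets differed by -3.21 and -1.34. *Adcy2* (1.12, SE 0.22), *Adcy9* (1.03, SE 0.20) and *Adcy5* (0.69, SE 0.21) were called higher. The *Adcy5* call was lost without either NT3-/-Bax-/- GFPon array, without NT3-/-Bax-/- GFPoff replicate 2, or without any wild-type GFPon, wild-type GFPoff or mlcNT3 GFPoff array (difference 0.36 to 0.78) and with the mean over its 4 probe sets (0.08). In all, 7 member probe sets were called higher, beside 10.4%, and 3 lower, beside 8.94%.

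GFPoff cells were then compared between genotypes. Between NT3-/-Bax-/- and Bax-/- GFPoff, *Adcy7* was at 11.47 and 11.57 against 8.67 and 9.35 (2.51, SE 0.28), *Adcy5* at 8.93 and 8.27 against 10.13 and 9.89 (-1.41, SE 0.21), and *Adcy9* at 9.77 and 9.82 against 11.04 and 10.63 (-1.04, SE 0.20). *Adcy8* (-1.88, SE 0.38, or -0.56 with the floor at the array medians) and *Adcy2* (-0.69, SE 0.22) were also called lower. All 3 *Adcy7* probe sets were called higher (1.02 to 2.53), and all 4 *Adcy9* probe sets lower (-1.66 to -1.04). The other 3 *Adcy5* probe sets differed by -0.12 to 0.42, and the mean over its 4 was not called (-0.22). The call of *Adcy8* was lost without Bax-/- GFPoff replicate 1 (-1.41), and that of *Adcy2* on leaving out any 1 of 11 arrays (-0.89 to -0.35), among them NT3-/-Bax-/- GFPoff replicate 2 (-0.35), either Bax-/- GFPoff array (-0.89 and -0.48) and every wild-type and mlcNT3 array. Here 3 member probe sets were called higher, beside 9.91% of all, and 7 lower, beside 11.8%, and without Bax-/- GFPoff replicate 1 only 5 were called in all. The fibroblast, endothelial, glial and nociceptor sums given above moved with these arrays, and their part in the member differences was not tested.

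*Adcy7* also differed between GFPoff cells of the other genotypes. It was at 8.67 and 9.35 in Bax-/- and at 6.58 and 7.43 in wild-type GFPoff (2.01, SE 0.28), the 1 member probe set called higher, beside 0.113% of all, with 0 called lower, beside 0.0644%. The call was lost without Bax-/- GFPoff replicate 2 (1.67) or wild-type GFPoff replicate 1 (1.58), and the other *Adcy7* probe sets differed by -0.33 and 1.12 (mean over all 3 0.93, not called). Immune markers summed to 205.7 and 1103 in the Bax-/- and to 209.6 and 260.1 in the wild-type arrays. In mlcNT3 GFPoff *Adcy7* was at 8.31 and 8.51 (1.40 above wild-type, SE 0.28) and *Adcy8* at 8.09 and 7.13 (1.48, SE 0.38). Neither was called, with 0 of 20 higher, beside 0% of all, and 0 lower, beside 0.00444%, in limma, where 7 had an unadjusted p under 0.05. Both *Adcy7* and *Adcy8* passed the methods' thresholds in limma, and *Adcy8* was called in 1 fit of all 39 arrays.

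In adult whole ganglia the family differed little between levels. Over all members, the differences between L5 and L1 were within 0.26 in size without a wheel and within 0.52 with one for the representative probe sets. *Adcy7* was at 9.24, 9.30 and 9.07 in L5 with a wheel and at 9.75, 9.66 and 9.75 in L1 with a wheel, a log2 difference of -0.52 (SE 0.10, adjusted p = 0.00666), and the 2 groups did not overlap (24.4% of all probe sets did not). Its other probe sets differed by -0.36 (adjusted p = 0.145) and 0.07, and the call was lost with the mean over all 3 (-0.27, adjusted p = 0.179) and in 1 fit of all 39 arrays (adjusted p = 0.788). It was the 1 member probe set called lower, beside 2.17% of all, and 0 were called higher, beside 3.26%. Without a wheel *Adcy7* was at 9.57, 9.52 and 9.86 in L5 and 9.59, 9.71 and 9.57 in L1 (0.03, SE 0.10), and 0 of 20 probe sets were called, beside 4.68% of all, by limma, with 4 at an unadjusted p under 0.05.

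**Figure D5:**
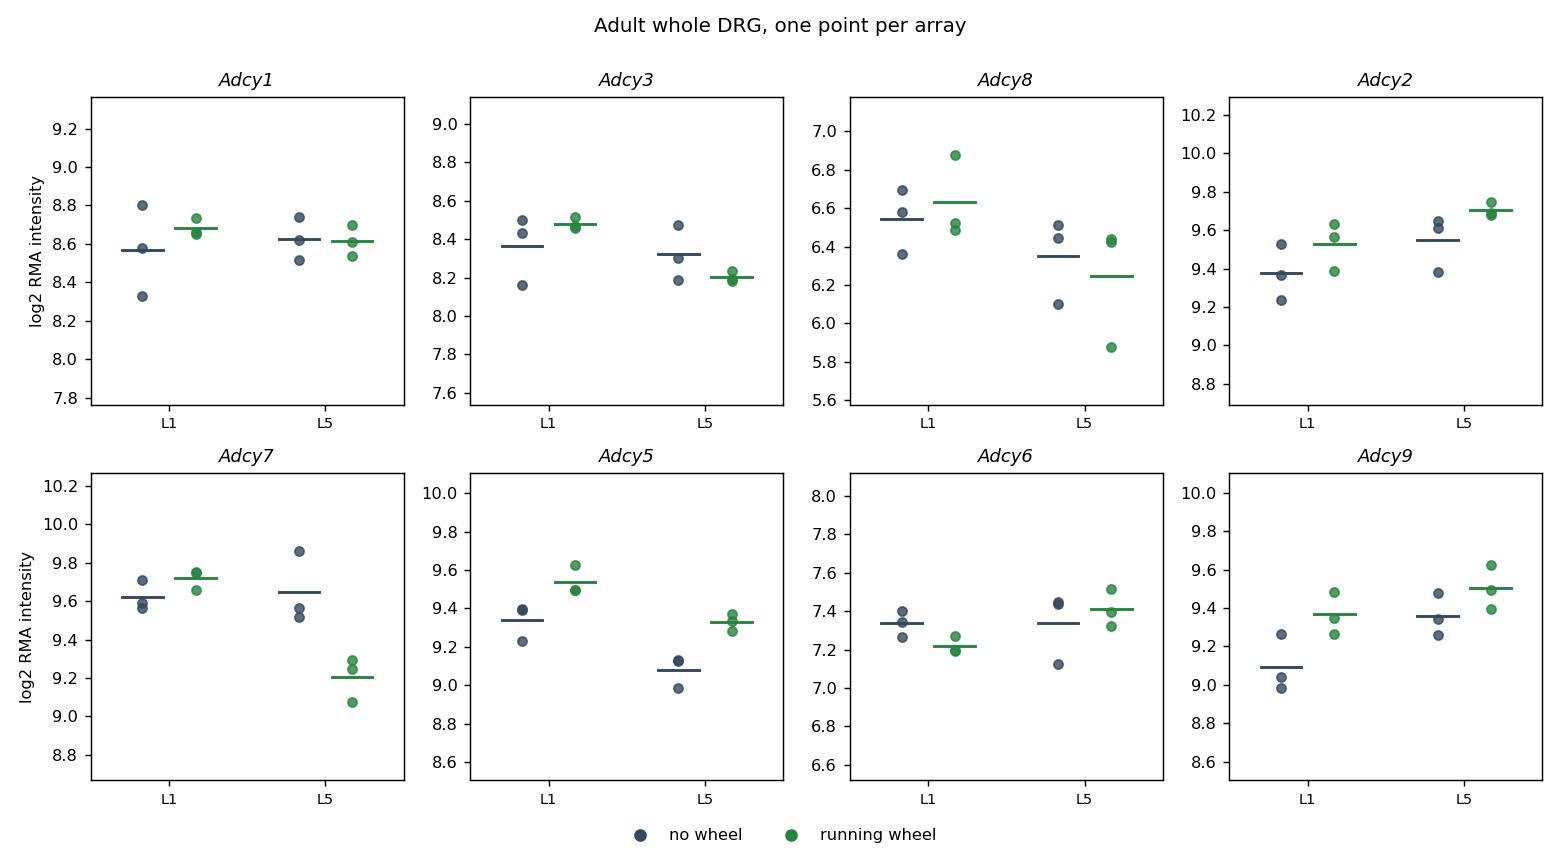
Log2 RMA intensity (y axis) of the representative probe set of each member in whole adult DRG of L1 and L5 (x axis) with and without a running wheel, with 1 point for each array (n = 3) and a line at the mean; each panel has its own axis. The L5 wheel arrays of *Adcy7* (9.07 to 9.30) lie below all other adult arrays.

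Access to a wheel called no member at L1 (0 of 20, beside 0.242% of all probe sets, 2 at an unadjusted p under 0.05) or at L5 (0 of 20, beside 0.48%, 6 at an unadjusted p under 0.05) in limma. At L5 *Adcy7* differed by -0.44 (SE 0.10, adjusted p = 0.0603) and no wheel array overlapped with a no-wheel array (20% of all probe sets did not overlap). It passed without L1 no-wheel replicate 1 (adjusted p = 0.0465) or L5 no-wheel replicate 1 (-0.48, adjusted p = 0.0301), with dim probe sets left out (adjusted p = 0.0382) and after quantile normalization within the adult arrays (-0.54, adjusted p = 0.0451). The difference in the wheel effect between levels was -0.54 (SE 0.14, unadjusted p = 0.00169, adjusted p = 0.238), and 0 probe sets of the array were called for it (0%). The methods' t-test called 0 members at its own thresholds in every comparison of 2 groups with 0 calls in limma, apart from *Adcy8* between L5 and L1 GFPon. *Adcy5* was higher with a wheel by 0.20 at L1 and 0.25 at L5, neither called (adjusted p = 0.383 and 0.156). Immune markers summed to 1488 to 2709 in L5 without and 1293 to 1630 with a wheel, and their part in the *Adcy7* values was not tested. *Adcy8* was at 5.88 to 6.88 over the 12 adult arrays, with all 4 group means between 6.25 and 6.63. The medians of these arrays were 6.09 to 6.13, so a difference in *Adcy8* could go unseen here.

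Adult calls in the pathway list were few, with 2 of 46 genes without a wheel, beside 4.68% of all probe sets. With a wheel 1 was called higher, beside 3.26%, and 3 lower, beside 2.17%. The totals moved with single arrays, from 1 to 4 without a wheel and from 1 to 5 with one. Without a wheel *Pkig* (-0.70, SE 0.12, adjusted p = 0.00419) and *Pde1c* (-0.42, SE 0.11, adjusted p = 0.0463) were lower in L5. With a wheel *Pkig* (-0.60, SE 0.12, adjusted p = 0.00892), *Pde2a* (-0.52, SE 0.13, adjusted p = 0.0284) and *Pde8a* (-0.43, SE 0.12, adjusted p = 0.0499) were lower and *Pde4b* (0.38, SE 0.10, adjusted p = 0.0443) was higher. Proprioceptor markers were higher in L5 ganglia (summed values of 1925 to 2444 without a wheel, against 1235 to 1298 in L1).

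How far the probe sets of a gene followed each other was described over the 12 newborn group means. These mix the pooled arrays (350 cells a sample) with the L1 and L5 arrays (100 cells a sample). Pearson's r with the representative was 0.98 for *Adcy1*, 0.72 to 0.93 for the 3 other sets of *Adcy3* and 0.62 and 0.93 for *Adcy7*. It was 0.58 for the brighter other set of *Adcy5* and -0.27 and -0.22 for its dim sets. The *Adcy5* values above therefore rest on 1 of 4 probe sets. For *Adcy9* it was -0.21 to 0.08. The *Adcy9* representative had means of 9.35 to 9.48 in the L1 and L5 groups and 9.79 to 11.10 in the pooled groups. Another *Adcy9* set had 8.71 to 9.20 and 6.87 to 9.14. The low r of *Adcy9* includes this offset between sets of arrays, and r within the pooled groups was not computed. Between members, *Adcy1* and *Adcy3* were most alike (0.87), *Adcy8* followed *Adcy2* (0.74) and *Adcy3* (0.73), and *Adcy1* and *Adcy6* were most unlike (-0.89).

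Of 19361 probe sets of 1 gene whose highest newborn group mean was at least 7, those most like *Adcy8* over the 12 group means were of *Plk3* (r = 0.98), *Dock5* (0.97), *Myo18a* (0.97), *Ppfia4* (0.96) and *Nacc2* (0.96). The least alike were of *1110038B12Rik* (-0.97), *Atrx* (-0.97) and *Use1* (-0.97). These are descriptions across groups that differ in genotype, cell population and set of arrays at once.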

How the data were processed

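RNA of the sorted cells or ganglia was amplified by in vitro transcription and hybridised to 39 Affymetrix mouse genome arrays. The deposited values are linear intensities that the authors made with RMA. The submitters' processing notes name R 2.9, affy, RMA and MAS5. By the study's methods, MAS5 served for detection calls, which were not used here. Whether RMA was run on all arrays at once is not given in the sources used here. The table has 45101 probe sets, and 64 controls were left out. Of the 45037 others, 34945 were annotated to 1 gene and 932 to several. Values were taken to log2 with no pseudocount and no filter.

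Differences were tested by linear models with moderated variances (limma 3.58.1, R 4.3.3), which held 1 mean for each group, in 3 fits, of 16 pooled newborn, 11 L1 and L5 newborn and 12 adult arrays. P-values were adjusted by Benjamini-Hochberg over all probe sets, and an adjusted p under 0.05 was a call. Samples were grouped by their labels. The number of arrays limits the precision. Scripts were tested on simulated data. The rule for genes named was every member, and from the cAMP pathway list up to 4 called genes in each direction with the widest differences. The members, the pathway and marker lists and the tests were chosen with earlier results of these data known. The methods' thresholds were p of at most 0.02 with at least 2-fold (1.5-fold for surplus NT3 and for adults). Alternatives were those thresholds, the methods' t-test, other sets of arrays in the fit, quantile normalization, a filter on dim probe sets (log2 of 6), the mean over probe sets, a replicate block and leaving out each array. Pairing by replicate number was checked by correlating deviations from group means. At L5 the 3 same-numbered GFPon and GFPoff pairs had r of 0.0849 to 0.203, against at most 0.0436 for other pairs. At L1 they had -0.07 and 0.00623, against up to 0.0762. In the pooled genotypes they had 0.197 (wild-type), 0.283 (Bax-/-), 0.158 (NT3-/-Bax-/-) and 0.00768 (mlcNT3). With 2 arrays a group, other pairs have the same size with the sign reversed. In adults r was as low as -0.241 (L5 against L1 without a wheel). These values did not decide pairing, and the reported fits use no block. Promoter sequences came from RefSeq (GRCm38.p6).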

Additional observations from a re-analysis of the deposited data

Results flagged for a closer look

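In several members the arrays of one contrast lay entirely above in one setting and entirely below in another. None of these differences between settings was tested, and in the contrasts of pooled arrays concerned 39.8% to 62% of all probe sets had arrays that did not overlap. *Adcy7* was higher in GFPon than in GFPoff in wild-type (1.41, log2) and mlcNT3 (0.45) mice and lower in NT3-/-Bax-/- mice (-2.89). Between NT3-/-Bax-/- and Bax-/- it was higher in GFPoff (2.51) and lower in GFPon (-0.72).

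*Adcy5* was higher in GFPon than in GFPoff in NT3-/-Bax-/- mice (0.69) and lower in wild-type (-1.27), Bax-/- (-1.28) and mlcNT3 (-2.60) mice. Between NT3-/-Bax-/- and Bax-/- it was higher in GFPon (0.56) and lower in GFPoff (-1.41), and between mlcNT3 and wild-type it was higher in GFPoff (0.11) and lower in GFPon (-1.22). *Adcy8* was higher in Bax-/- than in wild-type GFPoff (0.60) and lower in GFPon (-0.55). The NT3-/-Bax-/- GFPoff arrays, which carried high fibroblast and endothelial sums, enter 7 of these 9 pairs of values, and the part of those cells was not tested.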

How the results depend on the processing

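No member difference that was called, as reported or in an alternative, changed sign. Of 168 member differences, 44 took the other sign in at least 1 alternative, none of them called and all within 0.39 in reported size. Counts below are of member genes called, with the count of the reported fit in parentheses. The share of all probe sets called in each alternative is not given, so a changed count cannot be read as a result about the members. In fits of the 2 groups alone, GFPon against GFPoff gave 2 (4) in Bax-/- and 2 (5) in NT3-/-Bax-/-, mlcNT3 against wild-type GFPon 2 (1), NT3-/-Bax-/- against Bax-/- GFPoff 3 (5), and Bax-/- against wild-type GFPoff 0 (1). With the methods' thresholds in limma, the counts were 1 (2) for NT3-/-Bax-/- against wild-type GFPon, 3 (1) and 2 (0) for mlcNT3 against wild-type GFPon and GFPoff, 3 (5) for L1 GFPon against GFPoff, 1 (0) for L5 against L1 GFPon and 0 (1) for adult L5 against L1 with a wheel. The mean over probe sets gave 3 (5) for wild-type GFPon against GFPoff and 3 (5) at L1, and 0 (1) each for mlcNT3 against wild-type GFPon, Bax-/- against wild-type GFPoff and adult L5 against L1 with a wheel. The methods' t-test after Benjamini-Hochberg gave 0 for GFPon against GFPoff in the 4 genotypes (5, 4, 5 and 4), 0 for NT3-/-Bax-/- against Bax-/- (1) and wild-type (2) GFPon, for mlcNT3 against wild-type GFPon (1), for NT3-/-Bax-/- against Bax-/- GFPoff (5), for Bax-/- against wild-type GFPoff (1) and for adult L5 against L1 with a wheel (1), and 1 (5) at L1. At its own thresholds it gave 2 (4) in Bax-/- and 2 (5) in NT3-/-Bax-/- GFPon against GFPoff, 1 (2) for NT3-/-Bax-/- and 2 (1) for mlcNT3 against wild-type GFPon, 1 (5) and 0 (1) for the GFPoff comparisons of NT3-/-Bax-/- with Bax-/- and of Bax-/- with wild-type, 2 (5) at L1, 1 (0) for L5 against L1 GFPon and 0 (1) for the adult wheel comparison of levels. One fit of all 39 arrays gave 3 (1) for NT3-/-Bax-/- against Bax-/- GFPon, 1 (0) for mlcNT3 against wild-type GFPoff, 1 (0) for L5 against L1 GFPon and 0 (1) for adult levels with a wheel. Quantile normalization gave 0 (1) for mlcNT3 against wild-type GFPon, 2 (1) for adult levels with a wheel and 1 (0) for the wheel at L5. Without dim probe sets, NT3-/-Bax-/- against Bax-/- GFPon gave 2 (1) and the wheel at L5 1 (0). Without both NT3-/-Bax-/- GFPoff arrays, an alternative chosen after seeing the data, NT3-/-Bax-/- against Bax-/- GFPon gave 2 (1). The causes were not tested.

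With the replicate number as a block, mlcNT3 against wild-type GFPon gave 0 (1). The block also ended the calls of *Adcy5* in NT3-/-Bax-/- GFPon against GFPoff, *Adcy2* between NT3-/-Bax-/- and Bax-/- GFPoff and *Adcy6* at L5, and called *Adcy6* in mlcNT3 GFPon against GFPoff and *Adcy7* at L5. Whether same-numbered arrays are pairs was not decided.

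Leaving out 1 array gave 4 to 5 member genes (5) for wild-type, 3 to 4 (4) for Bax-/-, 4 to 5 (5) for NT3-/-Bax-/- and 4 (4) for mlcNT3 GFPon against GFPoff. It gave 1 to 2 (1) and 1 to 2 (2) for NT3-/-Bax-/- GFPon against Bax-/- and wild-type, 0 to 1 (1) for mlcNT3 against wild-type GFPon, 3 to 5 (5) for NT3-/-Bax-/- against Bax-/- GFPoff and 0 to 1 (1) for Bax-/- against wild-type GFPoff. At L5 it gave 5 to 6 (5), at L1 2 to 5 (5), for L5 against L1 GFPon 0 to 1 (0), for adult levels with a wheel 1 (1) and for the wheel at L5 0 to 1 (0). Over the pathway list, the counts for GFPon against GFPoff were 13 to 19 (19) at L5 and 13 to 19 (17) at L1. Groups of 2 or 3 arrays limit what these tests can detect, and no detection call was used for dim probe sets such as that of *Adcy8* without NT3.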
